A study of Mus musculus with 24 samples.

Results

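Macrophages sorted from the livers of mice without stellate BMP9 and BMP10 (Gdf2/Bmp10 HSC-KO) were compared with those of controls in 6 libraries of the 24 in the series, 3 from each group, chosen by their sample labels. In HSC-KO mice Gdf2 and Bmp10, the genes of these ligands, are floxed, and an Lrat-driven Cre deletes them in hepatic stellate cells (HSCs), so the deletion is not aimed at the macrophages. The controls are floxed mice without Cre, and all mice were C57BL/6 (C57BL/6J in the study's methods) and 8 to 10 weeks old. Cells were sorted as CD45+Ly6C-F4/80+CD64+, a gate that takes Ly6C- liver macrophages and not only Kupffer cells (KCs), and each library came from a separate mouse. The comparison asks what macrophages gain and lose in expression when stellate cells stop making the ligands. Whole-transcriptome counts were used for all genes, and 34 gene lists on metabolism, adhesion, cytokines, interferon and antigen presentation, lysosome, complement, cell cycle and transcription factors were followed beyond the KC genes.

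KCs are the resident macrophages of the liver sinusoid, where they touch endothelial and stellate cells and take up particles, dying red cells and lipoproteins from portal blood. BMP9 and BMP10 bind the receptor ALK1 and its partners, which phosphorylate SMAD1, SMAD5 and SMAD9 to act with SMAD4 on targets such as the Id genes. In other settings, macrophages that enter the liver or fill an emptied niche pass through states with different metabolism, chemokine receptors and antigen presentation before they resemble KCs.

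The libraries held 60911527 to 87955779 counts in the control group and 85936078 to 93926928 in the HSC-KO group, and 3 counts corresponded to 0.0315 to 0.0524 CPM, the count scaled to a fixed library size. Pan-macrophage genes were high in every library, with the summed level of 12 such genes at 33880 to 34950 CPM in controls and 28220 to 31100 CPM in HSC-KO. The receptor gene of the ligands, Acvrl1, was at 178, 156 and 195 CPM in controls and 175, 203 and 184 in mutants, and these overlapped. Gdf2 itself was at 0, 2.3 and 1.15 CPM in controls and 0.0798, 0 and 0.131 in HSC-KO (log2 fold change -4.01, SE 1.77, adjusted p = 0.161), and Bmp10 had a count in 1 control library only. These levels do not check the deletion, since it was made in another cell type. Male and female libraries occurred in both groups by their Xist and Y-linked counts. In sorted bulk RNA, fewer cells of a type and less RNA per cell cannot be told apart.

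Of 16337 genes tested, 1032 (6.32%) were higher in HSC-KO and 872 (5.34%) were lower, by edgeR's quasi-likelihood test with an adjusted p (Benjamini-Hochberg) under 0.05 and a log2 fold change beyond 1 in size; these genes are called DEGs, and the median log2 fold change over all tested genes was 0.04. In all statements below, adjusted p values are from this test. BMP targets fell in the mutants. Id3, which encodes an inhibitor of basic helix-loop-helix factors, was at 1157, 955 and 992 CPM in controls and 1.8, 2.02 and 6.52 in mutants (log2 fold change -8.23, SE 0.61, adjusted p = 1.83e-04). Id1 fell from 21, 13.8 and 9.8 CPM to 0.148, 0 and 0.0876 (log2 fold change -7.56, SE 0.8, adjusted p = 7.50e-04), and Smad6, which encodes an inhibitory SMAD, from 6.16, 6.15 and 7.95 to 0.0798, 0.629 and 0.405 (log2 fold change -4.17, SE 0.65, adjusted p = 0.00408). The groups did not overlap for any of these. Of 28 tested members of the BMP list, 8 fell and 2 rose (28.6% and 7.14%, against 5.34% and 6.32% of all genes, the share of rises being near the latter). The risers were Smad3, an effector of TGF-beta and activin (1.7), and Ski, a corepressor of the same branch (1.19). Of 27 tested KC core genes, 25 fell (median log2 fold change -4.6).

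**Figure D1:**
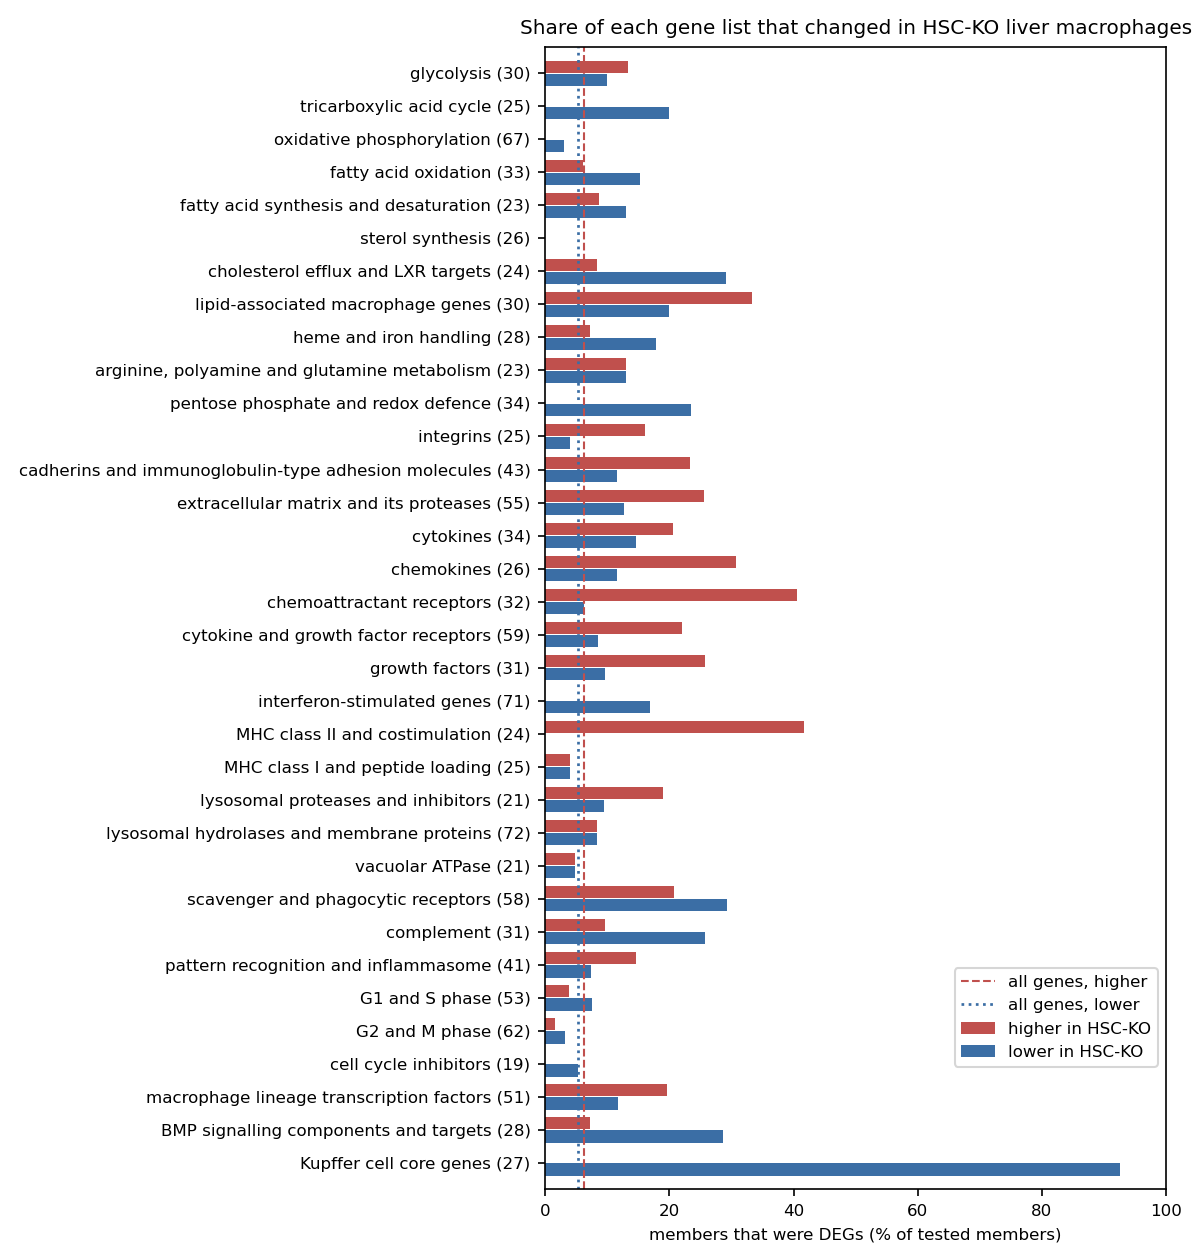
Bars give the percentage of tested members of each of 34 gene lists that were DEGs, with the number tested in brackets, red for higher and blue for lower in HSC-KO; dashed and dotted lines mark the 6.32% and 5.34% over all genes. Chemoattractant receptors and MHC class II genes reached the largest percentages higher, KC core genes the largest lower, and sterol synthesis had none.

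Among metabolic genes, 24 of 338 tested rose and 45 fell (7.1% and 13.3%, against 6.32% and 5.34% of all genes). Glycolysis did not move as one. Pfkfb3, a 6-phosphofructo-2-kinase whose product activates glycolysis, was at 14.2, 15 and 11.6 CPM in controls and 48.9, 53.6 and 43 in mutants (log2 fold change 1.83, SE 0.16, adjusted p = 2.95e-04). Its relative Pfkfb4 rose from 27.6, 16.3 and 22.9 CPM to 132, 117 and 121 (log2 fold change 2.47, SE 0.2, adjusted p = 2.37e-04). Every mutant library was above every control library for both. Hexokinase 3, which starts glycolysis by phosphorylating glucose, went the other way, with Hk3 at 132, 123 and 153 CPM against 31.5, 36.1 and 32.1 (log2 fold change -2.03, SE 0.13, adjusted p = 9.15e-05). The hexose transporter gene Slc2a6 fell as well (-2.31, SE 0.29). Ldha, lactate dehydrogenase A, was lower by less than the threshold, at 1129, 1342 and 1328 CPM and 637, 728 and 741 (log2 fold change -0.85, SE 0.14, adjusted p = 0.00452). In total 4 of 30 glycolysis members rose and 3 fell, of which 3 and 2 kept their call whichever library was left out. Gapdh was among the fallers (log2 fold change -1.31, SE 0.33, adjusted p = 0.0305), but it has many near-identical processed copies that can split reads, and its call was lost without control 1, control 2, HSC-KO 1, HSC-KO 2 or HSC-KO 3 (largest adjusted p = 0.102, log2 fold changes -1.62 to -0.93). Another riser, Ldhb (1.05), lost its call without control 1, control 2, HSC-KO 2 or HSC-KO 3 (largest adjusted p = 0.0748, log2 fold changes 0.84 to 1.21).

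Genes of the tricarboxylic acid cycle and the respiratory chain mostly had log2 fold changes below 0, and most did not pass the test. Of 25 tested members of the cycle list, 24 had a negative log2 fold change (median -0.54) and 0 rose. None was above 0 at an unadjusted p under 0.05 or called higher by DESeq2. The 5 that fell (20%, against 5.34% of all genes, or 3 genes without control 3) were Idh1, Acly, Acod1, Idh3a and Pcx. The list also holds genes beside the cycle, such as Acly, Acod1 and Pcx, so this share is not one of the cycle's own enzymes alone. The calls of Idh3a and Pcx were lost without control 3. That of Pcx was also lost without control 2, HSC-KO 1, HSC-KO 2 or HSC-KO 3 (largest adjusted p = 0.0989). Idh1, cytosolic isocitrate dehydrogenase and a source of NADPH, was at 863, 815 and 939 CPM in controls and 257, 245 and 273 in HSC-KO (log2 fold change -1.76, SE 0.12, adjusted p = 1.41e-04). Acly, which makes cytosolic acetyl-CoA from citrate, fell to a smaller degree, from 188, 191 and 143 to 66.4, 75.1 and 69.8 CPM (log2 fold change -1.31, SE 0.14, adjusted p = 8.47e-04). Acod1 makes itaconate, a metabolite of activated macrophages, and was at 4.35, 4.12 and 8.16 CPM in controls against 0, 0.168 and 0.208 (log2 fold change -5.44, SE 0.94, adjusted p = 0.00667). The groups did not overlap for these 3. Of 67 respiratory chain and ATP synthase genes, 64 were below 0 (median -0.42), but 2 were DEGs (2.99%, against 5.34% of all genes): Cox5a, a subunit of cytochrome c oxidase (224, 241 and 229.9 CPM against 51.1, 70.6 and 65.3; log2 fold change -1.89, SE 0.14, adjusted p = 2.15e-04), and Cycs, cytochrome c (116, 121 and 127 against 44.2, 55.6 and 59.1; log2 fold change -1.19, SE 0.14, adjusted p = 0.00106). The anchors Ndufs1 (-0.28) and Cox4i1 (-0.34) did not pass.

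**Figure D2:**
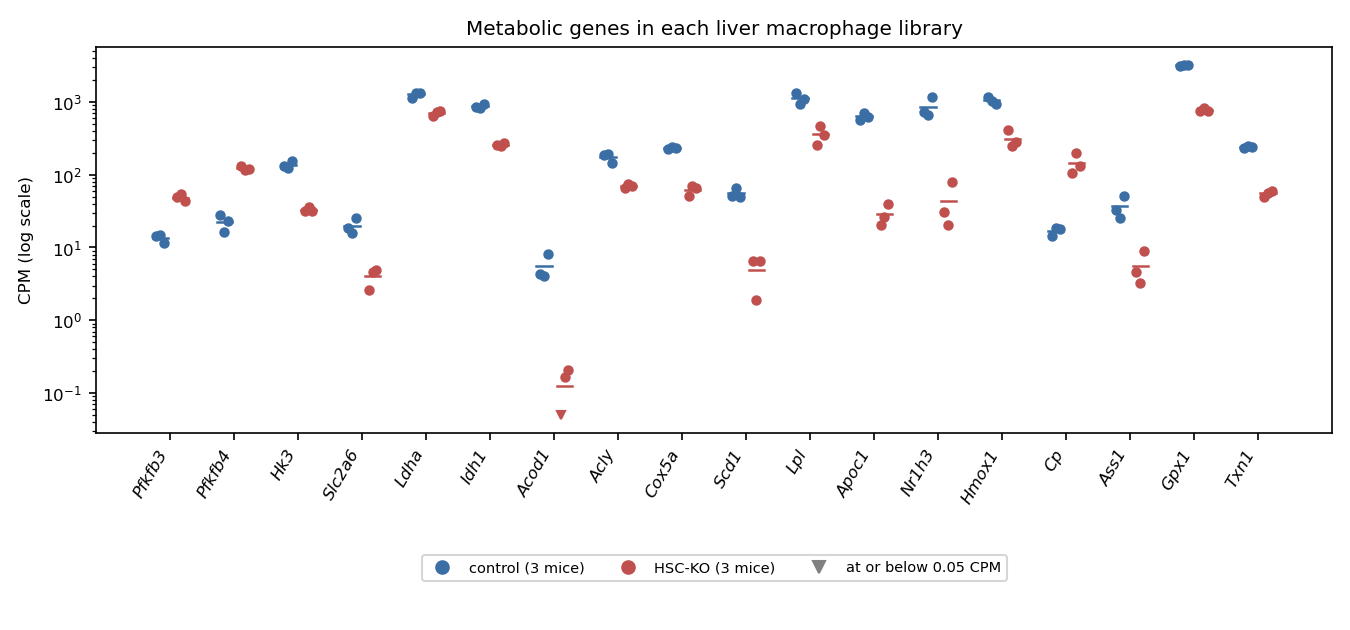
Each point is 1 library's level in CPM on a log axis for 18 metabolic genes, blue for control and red for HSC-KO, with bars at the group means and triangles for levels at or below 0.05 CPM. Pfkfb3, Pfkfb4 and Cp are higher in every HSC-KO library, and the other 15 genes are lower in every one.

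Of 23 fatty acid synthesis and desaturation genes, 2 rose and 3 fell (8.7% and 13%, against 6.32% and 5.34% of all genes), and 1 fell without control 2, control 3, HSC-KO 1 or HSC-KO 2. Scd1, the desaturase that makes oleic acid from stearic acid, was at 51.8, 65.7 and 49.95 CPM in controls and 6.43, 1.9 and 6.46 in HSC-KO (log2 fold change -3.5, SE 0.45, adjusted p = 0.00178). Fasn (-0.59, adjusted p = 0.11) and Scd2 (-0.44, adjusted p = 0.161) did not pass and overlapped between groups. Agpat2, an acyltransferase of phosphatidic acid synthesis, rose from 5.98, 6.06 and 6.12 to 24.8, 22.4 and 18.5 CPM (log2 fold change 1.86, SE 0.16, adjusted p = 3.39e-04), and Lpin1, a phosphatidate phosphatase, rose too (1.64, SE 0.29). In fatty acid oxidation, 2 of 33 members rose and 5 fell (6.06% and 15.2%, the share of rises being near that of all genes), or 3 fell without HSC-KO 2. Ppara, the nuclear receptor that switches on oxidation in liver, had low levels in controls, 0.922, 0.742 and 1.73 CPM, and no count in any HSC-KO library, which is at least 33.1-fold lower against the floor of 3 counts per library. Its relative Pparg rose from 5.4, 6.17 and 6.5 CPM to 20.04, 16.9 and 23.1 (log2 fold change 1.73, SE 0.18, adjusted p = 6.57e-04). Acox3, a peroxisomal oxidase, fell (log2 fold change -1.71, SE 0.21, adjusted p = 0.00147), whereas Cpt1a (-0.37, adjusted p = 0.259) and Acadm (0.16, adjusted p = 0.446), which act in mitochondria, did not pass. None of the 26 sterol synthesis genes was a DEG by edgeR's test, at a median log2 fold change of 0.19, and 17 were above 0. At an unadjusted p under 0.05, 3 were above and 1 below 0, and DESeq2 called 0.

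Of 24 cholesterol efflux genes and LXR targets, 7 fell, all of which kept their call whichever library was left out, and 2 rose, or 1 without control 3, HSC-KO 1 or HSC-KO 2 and 3 without HSC-KO 3. These are 29.2% and 8.33%, against 5.34% and 6.32% of all genes, the share of rises being near the latter. Nr1h3 encodes LXR-alpha, the oxysterol receptor that KCs depend on, and was at 724, 652 and 1151 CPM in control libraries and 30.7, 20.1 and 78.6 in HSC-KO libraries (log2 fold change -4.29, SE 0.54, adjusted p = 0.00171); it shares exons with a read-through entry, Gm13783. Apoc1, an apolipoprotein, was at 571, 712 and 625 CPM against 20.4, 26.3 and 40.2 (log2 fold change -4.46, SE 0.28, adjusted p = 8.56e-05). Pltp, a phospholipid transfer protein, and Lpl, lipoprotein lipase, fell as well (log2 fold changes -1.81 and -1.64). Ch25h, which makes 25-hydroxycholesterol, rose from 0.414, 0.318 and 0.909 to 6.95, 7.71 and 3.39 CPM (log2 fold change 3.47, SE 0.52, adjusted p = 0.00351). The main efflux pump gene Abca1 was higher in the mean but overlapped between groups (147, 132 and 77.6 CPM against 293, 179.9 and 144; adjusted p = 0.125).

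Genes that mark lipid-associated macrophages, a state known from fatty liver and adipose tissue, split in direction. Of 30 tested, 10 rose and 6 fell (33.3% and 20%, against 6.32% and 5.34% of all genes), with 9 and 4 kept whichever library was left out. Cd63, a tetraspanin of late endosomes, was at 4.6, 6.71 and 4.65 CPM in controls and 668, 749.6 and 486 in HSC-KO, the largest rise of the list (log2 fold change 6.9, SE 0.27, adjusted p = 2.49e-05). Lgals1, a secreted galectin, rose from 5.02, 11.3 and 8.27 to 91.3, 105 and 108 CPM (log2 fold change 3.63, SE 0.29, adjusted p = 2.37e-04). Trem2, the lipid-sensing receptor of this state, was at 71.8, 80.6 and 120.4 CPM against 319.8, 409.9 and 199 (log2 fold change 1.77, SE 0.3, adjusted p = 0.00606). Gpnmb, another of its markers, was at 0.579, 1 and 1.42 CPM in controls and 1.21, 0.409 and 1.18 in HSC-KO and did not pass (-0.09, SE 0.57, adjusted p = 0.93). Lpl, Lipa and Igf1 fell (log2 fold changes -1.64, -1.25 and -1.25). Lipa is the lysosomal acid lipase, Lpl acts outside the cell on lipoproteins, and Igf1 is a growth factor.

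Among heme and iron genes, with a median log2 fold change of -0.08, fallers included genes of heme breakdown and iron export. Hmox1, which opens the heme ring, was at 1159, 1041 and 939 CPM in controls and 417, 246 and 277 in HSC-KO (log2 fold change -1.74, SE 0.22, adjusted p = 0.00157). Slc40a1, the iron exporter ferroportin, fell from 2099, 2047 and 1862 to 888, 583 and 551 CPM (log2 fold change -1.57, SE 0.21, adjusted p = 0.0019), and Cd163, the receptor for haptoglobin-bound hemoglobin, from 507, 445 and 323 to 174, 89.3 and 110.1 (log2 fold change -1.77, SE 0.28, adjusted p = 0.00431). No HSC-KO library reached the lowest control library for these. Cp, ceruloplasmin, the ferroxidase that loads exported iron onto transferrin, moved the opposite way, from 14.4, 18.3 and 17.7 to 105, 196 and 130.0 CPM (log2 fold change 3.09, SE 0.25, adjusted p = 2.37e-04). Of 28 tested members, 5 fell and 2 rose (17.9% and 7.14%, against 5.34% and 6.32% of all genes), with 1 rise left without control 2, control 3, HSC-KO 1 or HSC-KO 2. The globin genes Hba-a1 and Hbb-bs, which come from red cells, were lower in HSC-KO as well (-2.55 and -2.29); their part in the result was not tested.

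In the arginine, polyamine and glutamine list, 3 of 23 fell, or 5 without control 3, and 3 rose (13% each, against 5.34% and 6.32% of all genes), of which 1 kept its call whichever library was left out. Ass1, which rebuilds arginine from citrulline, fell from 32.8, 25.8 and 51.6 to 4.55, 3.27 and 8.9 CPM (log2 fold change -2.72, SE 0.42, adjusted p = 0.00406). The summed hepatocyte markers overlapped between groups, at 284.5 to 1002 CPM in controls and 370.6 to 560.0 in HSC-KO, while 2 of the 10 (Fabp1 and Cyp2e1) were lower, or 8 without control 1; their part in the result was not tested. Slc1a5, a neutral amino acid and glutamine transporter and the rise that kept its call, went up from 4.56, 2.73 and 2.74 to 12.2, 14.2 and 12.9 CPM (log2 fold change 1.97, SE 0.25, adjusted p = 0.00176). Slc7a1, a cationic amino acid transporter, was higher (1.41) with a call that was lost without control 2, control 3, HSC-KO 1, HSC-KO 2 or HSC-KO 3 (largest adjusted p = 0.131, log2 fold changes 1.12 to 1.84). Slc7a5, a transporter of large neutral amino acids, was higher too (1.33), and its call was lost without control 1, control 2, control 3, HSC-KO 1 or HSC-KO 2 (largest adjusted p = 0.106, log2 fold changes 1.23 to 1.48).

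Redox genes moved in a single direction among the DEGs, 8 lower and 0 higher of 34 tested (23.5% lower, against 5.34% of all genes), and 7 of these kept their call whichever library was left out. At an unadjusted p under 0.05, 1 was above 0, and DESeq2 called 0 higher. Gpx1, which reduces hydrogen peroxide with glutathione, was at 3109, 3216 and 3263 CPM in controls and 756, 819 and 761 in HSC-KO (log2 fold change -2.04, SE 0.13, adjusted p = 8.56e-05). Txn1, thioredoxin, fell from 232, 248 and 241 to 49.6, 56.8 and 60.4 CPM (log2 fold change -2.11, SE 0.12, adjusted p = 6.62e-05), and its reductase gene Txnrd1 fell too (-1.64, SE 0.26). No mutant library reached the lowest control library for these genes. Taldo1, transaldolase of the pentose phosphate pathway, fell (-1.41), while the entry enzyme gene G6pdx was lower by less than the threshold (log2 fold change -0.73, SE 0.15, adjusted p = 0.0146). Nqo1, a target of NRF2, was under 1 CPM in every library and did not pass (0.43, adjusted p = 0.778).

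Adhesion genes rose more often than they fell, 28 against 13 of 123 tested (22.8% and 10.6%, against 6.32% and 5.34% of all genes). Of 25 tested members of the integrin list, which also holds talin and kindlin genes, 4 rose and 1 fell, or 2 without HSC-KO 2 or HSC-KO 3. Itgad, the alpha-D chain, had no count in any control library and was at 2.52, 2.59 and 11.6 CPM in HSC-KO, at least 106-fold higher against the floor of 3 counts per library, with HSC-KO 3 above the other two; it shares exons with the entry Gm17831, as Itgam does with Gm49368. Itga6, a laminin receptor chain, went from 1.36, 0.73 and 1.84 to 25.4, 103 and 45.8 CPM (log2 fold change 5.48, SE 0.62, adjusted p = 0.00101). The chains of the complement receptors CR4 and CR3, Itgax (6.58, 3.05 and 2.38 against 27.2, 23.5 and 42.1 CPM; log2 fold change 2.94, SE 0.42, adjusted p = 0.003) and Itgam (56.3, 49.3 and 46.6 against 134, 149 and 139; log2 fold change 1.47, SE 0.12, adjusted p = 2.37e-04), rose in every mutant library. Itgal, the alpha-L chain that pairs with the same beta chain in LFA-1, was the single faller with all libraries, from 515, 483 and 389 to 65.3, 63.6 and 105 CPM (log2 fold change -2.57, SE 0.23, adjusted p = 3.70e-04). Itgal is also a marker of Ly6C-low monocytes. The summed level of 10 such markers was 1515 to 1590 CPM in controls and 322.5 to 511.7 in HSC-KO, with 3 lower (Itgal, Treml4 and Cd300e) and 2 higher (Spn and Pglyrp1); their part in the result was not tested. The call of Pglyrp1 was lost without control 1, control 2, control 3, HSC-KO 1 or HSC-KO 3 (largest adjusted p = 0.134, log2 fold changes 1.81 to 2.82).

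Of 43 cadherin and immunoglobulin-type adhesion genes, 10 rose and 5 fell (23.3% and 11.6%, against 6.32% and 5.34% of all genes). Cd93, a lectin-like receptor of myeloid and endothelial cells, was at 17.3, 26.5 and 15.6 CPM in controls and 1272, 729 and 893 in HSC-KO (log2 fold change 5.6, SE 0.32, adjusted p = 6.83e-05). Vcam1, the ligand of the integrin VLA-4, was high already and rose from 389, 411 and 286 to 2422, 1108 and 1176 CPM (log2 fold change 2.12, SE 0.33, adjusted p = 0.00406). Alcam, a homophilic adhesion molecule, rose at a lower level (log2 fold change 2.81, SE 0.29, adjusted p = 7.19e-04). Cd44, a hyaluronan receptor, fell from 977, 1008 and 839 to 167, 146 and 162 CPM (log2 fold change -2.58, SE 0.14, adjusted p = 5.37e-05). Cdh5, known as VE-cadherin of endothelium and also a KC gene, was at 283, 256 and 197 CPM in controls and 0.889, 0.765 and 2.68 in HSC-KO (log2 fold change -7.4, SE 0.55, adjusted p = 1.86e-04). The summed level of 12 endothelial markers was 3549 to 6897 CPM in controls and 1748 to 4932 in HSC-KO. It came mostly from Dnase1l3, and Cdh5 is itself among the 12, so the sum alone does not show endothelial cells. Of the 12, 4 were lower (Cdh5, Stab2, Lyve1 and Pecam1) and none was higher; 2 were lower without control 2 or HSC-KO 1 and 8 without HSC-KO 3. The call of Pecam1 was lost without control 1, control 2, control 3 or HSC-KO 1 (largest adjusted p = 0.113, log2 fold changes -2.55 to -1.45), and that of Lyve1 without control 2, HSC-KO 1 or HSC-KO 3 (largest adjusted p = 0.0811, log2 fold changes -3.46 to -2.54). The part of endothelial cells in the fall of Cdh5 was not tested.

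In the matrix list, 14 of 55 rose and 7 fell (25.5% and 12.7%, against 6.32% and 5.34% of all genes), 12 and 6 of which kept their call whichever library was left out. F13a1, the coagulation factor XIII A chain that cross-links fibrin, was at 0.213, 0.271 and 0.647 CPM in controls and 41, 32.4 and 23.9 in HSC-KO (log2 fold change 6.48, SE 0.46, adjusted p = 1.52e-04). Mmp13, a collagenase, rose from 6.23, 6.04 and 3.97 to 235, 333 and 200.2 CPM (log2 fold change 5.56, SE 0.28, adjusted p = 4.84e-05). Mmp14, a membrane-bound protease that activates other metalloproteases, rose from 17.9, 18.5 and 30.03 to 119.8, 192 and 180.3 (log2 fold change 2.89, SE 0.27, adjusted p = 4.30e-04). The groups were far apart for each of them. Mmp2 (4.42) and Adam19 (4.61, a sheddase) were higher too, as was Timp2 (1.34), an inhibitor of metalloproteases. In the other direction, Mmp27 fell from 20.8, 20.5 and 14.3 to 0.638, 0.776 and 1.37 CPM (log2 fold change -4.32, SE 0.35, adjusted p = 2.38e-04), and Tgm2, tissue transglutaminase, from 1012, 1224 and 805 to 241, 218 and 304 (log2 fold change -1.99, SE 0.2, adjusted p = 6.24e-04). Mmp9 was lower (39.8, 53.5 and 25.5 against 8.83, 0.744 and 3.43 CPM; log2 fold change -3.19, SE 0.77, adjusted p = 0.0254), but the call was lost without control 2 or HSC-KO 3 (largest adjusted p = 0.0836, log2 fold changes -4.25 to -2.69). Col1a1 and Col3a1, which stellate cells and fibroblasts make, were under 4 CPM in all libraries, and the summed level of 12 stellate markers overlapped, at 98.82 to 177.1 CPM in controls and 63.22 to 161.9 in HSC-KO.

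Genes for soluble signals and their receptors held the largest share of rises among the 10 groups of lists, 49 of 182 tested (26.9%) against 18 that fell (9.89%), beside 6.32% and 5.34% of all genes. Among 26 chemokines, 8 rose and 3 fell (median log2 fold change 1.22). Ccl12, a ligand of CCR2, was at 2.32, 2.04 and 2.17 CPM in controls and 47.1, 76.9 and 32.9 in HSC-KO (log2 fold change 4.59, SE 0.33, adjusted p = 1.65e-04). Ccl7 and Ccl8, of the same gene cluster on chromosome 11 (GRCm38, chr11:82045712-82047525 and chr11:82115185-82116799, beside Ccl12 at chr11:82101845-82103400), rose to a mean of 39.8 ± 10.3 CPM and 15.4 ± 2.27 CPM (SD, n = 3), from 8.49 ± 2.17 and 1.7 ± 0.601. The anchor of this group, Ccl2, was higher in the mean but overlapped (55.5, 28.7 and 36.8 against 186, 44.9 and 92.3 CPM; adjusted p = 0.0821). Pf4, platelet factor 4, was at 56.1, 69.6 and 49.7 CPM and 749, 970.3 and 553 (log2 fold change 3.7, SE 0.25, adjusted p = 1.23e-04); the platelet genes Ppbp, Gp9 and Itga2b were under 1 CPM in every library. The homeostatic chemokine Cxcl13, which draws B cells, was at 210.2, 242 and 344 CPM in controls, with no count in 2 HSC-KO libraries and -10.65 as the fitted log2 fold change (SE 1.06, adjusted p = 5.89e-04). Ccl24, an eosinophil attractant, fell from 248, 297 and 269.6 to 14.4, 15.1 and 13.4 CPM (log2 fold change -4.24, SE 0.13, adjusted p = 9.25e-06), and Ccl6, the most abundant of the list, from 1649, 2067 and 1865 to 671, 536 and 521 (log2 fold change -1.69, SE 0.16, adjusted p = 4.62e-04).

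Chemoattractant receptors changed in the same sense, 13 of 32 higher and 2 lower, the largest share of rises after MHC class II. These are 40.6% and 6.25%, against 6.32% and 5.34% of all genes, the share of falls being near the latter. Cx3cr1, the fractalkine receptor of patrolling and tissue macrophages, was at 30.7, 19.1 and 24.1 CPM in controls and 1370.3, 2052 and 1669 in HSC-KO (log2 fold change 6.11, SE 0.27, adjusted p = 3.39e-05), a mean 68.8-fold higher. Ccr1, a receptor for CCL3 and CCL5, went from 1.05, 0.659 and 0.577 to 188, 322 and 178 CPM (log2 fold change 8.21, SE 0.38, adjusted p = 3.68e-05). Gpr183, an oxysterol receptor whose ligand is made from the product of Ch25h, went from 1.12, 1.15 and 0.402 to 23.7, 48.7 and 21.2 (log2 fold change 5.1, SE 0.51, adjusted p = 5.91e-04). For all 3, the lowest mutant library was over 10 times the highest control library. Ccr2, the receptor that brings monocytes into tissue, rose from 9.49, 6.89 and 4.07 to 33.2, 84.1 and 83.4 CPM (log2 fold change 3.29, SE 0.44, adjusted p = 0.00214), and Ccr3 from 27.9, 9.67 and 11.7 to 214, 522 and 338 (log2 fold change 4.44, SE 0.52, adjusted p = 0.00119). Formyl peptide receptors, which sense bacterial products, fell, with Fpr1 at 462, 407 and 454 CPM against 103, 163 and 158 (log2 fold change -1.64, SE 0.19, adjusted p = 0.00117). The gate takes Ly6C- cells. Of 8 tested markers of Ly6C-high monocytes, 3 were higher (F13a1, Ccr2 and Ly6c2; 6.32% of all genes were higher), and the summed level of the 10 listed was 107 to 242.1 CPM in controls and 100.5 to 153 in HSC-KO, so the groups overlapped. Plac8 was lower (80.3, 131 and 181 against 3.09, 3.25 and 12.5 CPM), Ly6c2 was at most 4.08 CPM with a call lost without control 1, control 2, control 3, HSC-KO 1 or HSC-KO 3 (largest adjusted p = 0.135, log2 fold changes 2.36 to 3.22), and Vcan and Chil3 were at or near 0. The part of monocytes in these rises was not tested. Without control 2, the calls of 6 of the 13 rising receptors were lost, namely Cxcr6, Xcr1, Cxcr3, S1pr1, S1pr2 and C5ar1. Some of these were also lost without control 3 (Cxcr6, Xcr1, C5ar1), HSC-KO 1 (Cxcr6, Cxcr3, S1pr1), HSC-KO 2 (S1pr2) or HSC-KO 3 (Cxcr6, Cxcr3), with largest adjusted p values of 0.0848, 0.057, 0.063, 0.0536, 0.0245 and 0.0683 in that order; 7 rises kept their call whichever library was left out.

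**Figure D3:**
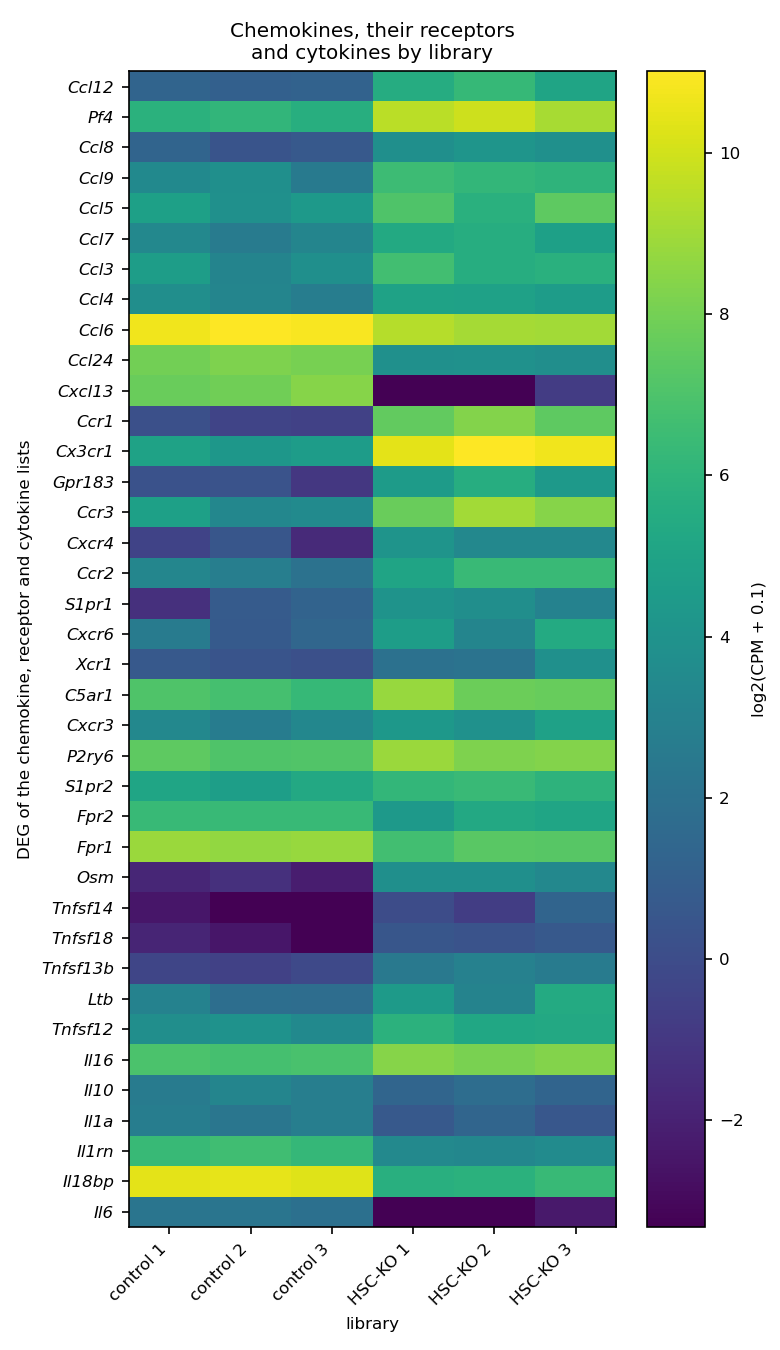
Each row is a DEG of the chemokine, chemoattractant receptor or cytokine list and each column a library, coloured by log2(CPM + 0.1). The 3 HSC-KO columns are brighter for Ccr1, Cx3cr1, Pf4 and Osm and darker for Cxcl13, Ccl24, Il18bp and Il6 than all 3 control columns.

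Part of the rise in this group moved with lymphocyte genes. Of 10 T cell markers, 7 were higher and none lower (6.32% of all genes were higher; 4 markers without control 3), and their summed level was 19.26 to 43.92 CPM in controls and 173.4 to 326.4 in HSC-KO. The largest part was Cd4, which some macrophages make, at 19.4, 11.1 and 8.97 and 184, 128 and 132 CPM. Of 9 tested NK cell markers, 7 were higher and 1, Klrk1, was lower, and the summed level of the 10 listed overlapped between groups, at 89.69 to 139.6 CPM in controls and 66.3 to 181.3 in HSC-KO. Trbc2, a T cell receptor constant region, was at 5.15, 2.12 and 2.53 CPM and 24.8, 10.7 and 45.9 (log2 fold change 3.05, SE 0.57, adjusted p = 0.00932), and Nkg7, a granule protein of cytotoxic cells, at 9.46, 3.72 and 3.09 and 59.3, 24.3 and 76.4 (log2 fold change 3.29, SE 0.56, adjusted p = 0.00625). HSC-KO 2 was the lowest mutant library for both. Ccl5 (28.1, 14.7 and 21.7 against 132, 55.2 and 173 CPM), Cxcr6 (6.22, 1.55 and 2.55 against 25, 8.94 and 43.5) and Ctsw, a protease of cytotoxic lymphocytes (2.18, 0.365 and 0.821 against 15.3, 8.18 and 24.1), had the same order of libraries within the mutants, as did Ltb (8.11, 3.57 and 3.36 against 22.4, 8.3 and 43.9) and Il7r (0.698, 0.118 and 0.367 against 5.39, 1.15 and 7.08). The calls of Cxcr6, Ltb and Il7r were lost when control 2, control 3, HSC-KO 1 or HSC-KO 3 was left out (largest adjusted p = 0.0848, 0.117 and 0.0811). Their part in these rises was not tested. Of 10 B cell markers, 2 were higher (Ighm and Cd79b) and none lower, or 2 lower without HSC-KO 3. Their summed level was 125 to 167.1 CPM in controls and 595 to 788.2 in HSC-KO, where most of it was Ighm. Ms4a1, a B cell membrane protein, was at 1.37, 2 and 1.77 CPM and 0.889, 0.692 and 1.65, whereas Ighm, the immunoglobulin mu chain, went from 12.4, 13.6 and 11.5 to 368, 534 and 474 (log2 fold change 5.19, SE 0.19, adjusted p = 1.83e-05).

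**Figure D4:**
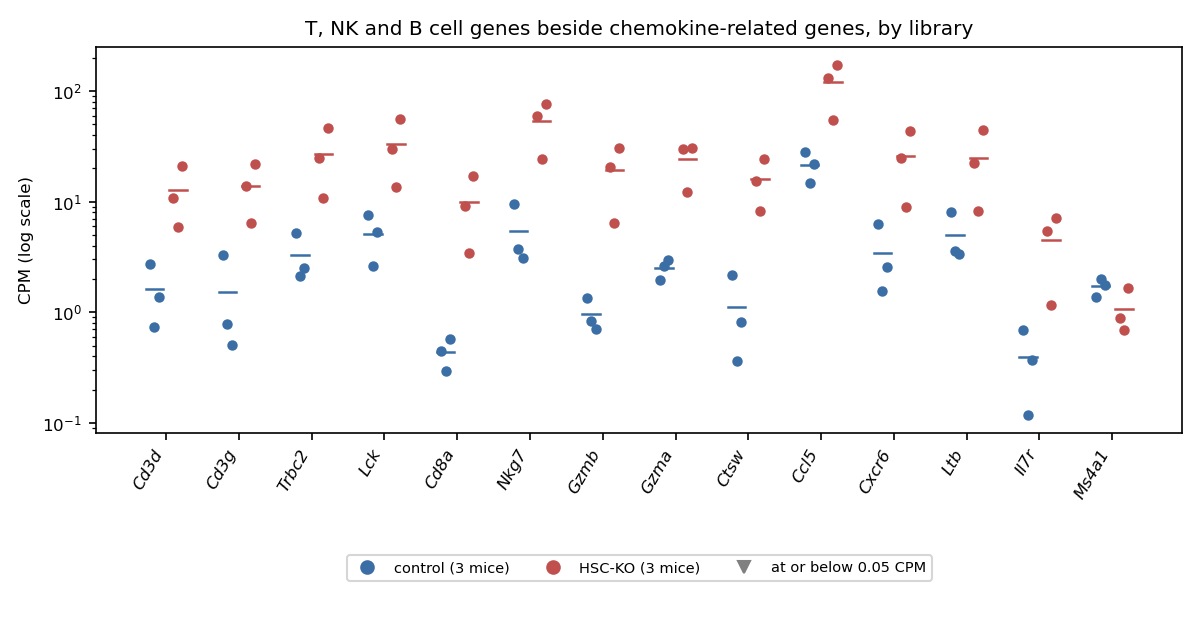
Each point is 1 library's level in CPM on a log axis, blue for control and red for HSC-KO, with bars at the group means, for T and NK cell genes (Cd3d to Gzma), 5 genes of the signalling and protease lists (Ctsw to Il7r) and the B cell gene Ms4a1. HSC-KO 2 is the lowest mutant library for the first 13 genes, and the groups overlap for Ms4a1.

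Among 34 cytokines, 7 rose and 5 fell (20.6% and 14.7%, against 6.32% and 5.34% of all genes), but 4 rose without control 2, HSC-KO 1 or HSC-KO 3, and 4 rises and 5 falls kept their call whichever library was left out. Osm, oncostatin M, a cytokine of the IL-6 family, was at 0.189, 0.294 and 0.122 CPM in controls and 14.2, 14 and 10.2 in HSC-KO (log2 fold change 5.95, SE 0.36, adjusted p = 8.33e-05). Tnfsf13b, the B cell survival factor BAFF, rose from 0.698, 0.589 and 0.804 to 5.48, 7.82 and 6.22 CPM (log2 fold change 3.22, SE 0.28, adjusted p = 3.34e-04), and Il16, the most abundant of the risers, from 125, 108 and 121 to 344, 276 and 327 (log2 fold change 1.42, SE 0.13, adjusted p = 3.85e-04). Secreted inhibitors of IL-1 and IL-18 fell. Il18bp, the secreted inhibitor of IL-18, was at 1377, 1432 and 1261 CPM in controls and 53.1, 57.7 and 80.6 in HSC-KO (log2 fold change -4.41, SE 0.2, adjusted p = 3.68e-05), and Il1rn, the IL-1 receptor antagonist, at 80.6, 98.3 and 75.7 and 10.8, 9.85 and 11.8 (log2 fold change -2.98, SE 0.15, adjusted p = 4.84e-05). Il6 was low in controls, 4.68, 4.69 and 3.85 CPM, and at 0, 0 and 0.0986 in mutants (log2 fold change -7.00, SE 1.07, adjusted p = 0.00394), and Il10, an anti-inflammatory cytokine, fell (-1.43, SE 0.26). Il1b varied as much within as between groups (453, 709 and 402 against 70.1, 542 and 324 CPM; adjusted p = 0.449), and Tnf was at most 2.73 CPM and did not pass (1.04, adjusted p = 0.245).

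Of the cytokine and growth factor receptors, 13 of 59 were higher and 5 lower (22% and 8.47%, against 6.32% and 5.34% of all genes), or 3 lower without control 2. Il21r, the IL-21 receptor, was at 12, 6.28 and 4.47 CPM and 105, 120.3 and 84.6 (log2 fold change 3.76, SE 0.37, adjusted p = 5.53e-04), and Il1rl1, the IL-33 receptor ST2, at 0.225, 0.2 and 0 and 6.15, 8.56 and 3.44 (log2 fold change 5.34, SE 0.88, adjusted p = 0.00529). Both subunits of the TGF-beta receptor rose, Tgfbr1 from 70.5, 65.8 and 44.2 to 437, 488 and 297 CPM (log2 fold change 2.76, SE 0.25, adjusted p = 3.78e-04) and Tgfbr2 from 129, 119.8 and 82.3 to 296, 332 and 243 (log2 fold change 1.4, SE 0.2, adjusted p = 0.00299). Lifr, through which leukemia inhibitory factor acts, rose by 2.25 (SE 0.28). Csf1r, the receptor macrophages need to survive, was lower by less than the threshold (6045, 5562 and 4639 against 3294, 3195 and 3048 CPM; log2 fold change -0.77, SE 0.15, adjusted p = 0.012). The shared beta chain Csf2rb fell (-1.18), and Fgfr1, a fibroblast growth factor receptor, fell, at 25, 19.1 and 21.4 CPM against 0.194, 0 and 0.833 (log2 fold change -5.99, SE 1.04, adjusted p = 0.00669). Of 31 growth factors, 8 rose, all of which kept their call whichever library was left out, and 3 fell. Gas6, the ligand of the efferocytosis receptors AXL and MERTK, went from 15.5, 20.4 and 15.6 to 237, 222 and 158 CPM (log2 fold change 3.58, SE 0.21, adjusted p = 6.83e-05), and Sema4d, a semaphorin, from 2.97, 2.17 and 0.402 to 63.1, 89.1 and 57.9 (log2 fold change 5.22, SE 0.63, adjusted p = 0.00137). Hbegf, an EGF receptor ligand, fell from 44.6, 38.1 and 31.6 to 4.27, 2.42 and 3.11 (log2 fold change -3.54, SE 0.26, adjusted p = 1.60e-04), and Igf1 from 719.7, 906 and 1141 to 385, 373 and 403 (log2 fold change -1.25, SE 0.18, adjusted p = 0.00298).

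The DEGs among interferon-stimulated genes were all lower and those among MHC class II genes all higher. Of 71 interferon-stimulated genes, 12 fell and 0 rose (16.9% lower, against 5.34% of all genes), and the remaining 59 did not pass, with a median of -0.17 over the list. Of the 12 falls, 9 kept their call whichever library was left out. By edgeR's test 12 members were above 0 at an unadjusted p under 0.05, and DESeq2 called 0 of them higher; without control 1 or HSC-KO 1 there was 1 riser. Irf7, the factor that amplifies type I interferon, was at 1493, 1631 and 2619.5 CPM in controls and 558, 632 and 753 in HSC-KO (log2 fold change -1.56, SE 0.24, adjusted p = 0.00408). Helz2, an interferon-induced helicase, went from 232, 185 and 124 to 8.09, 6.91 and 7.9 CPM (log2 fold change -4.56, SE 0.25, adjusted p = 6.38e-05), and Oas3, a sensor of double-stranded RNA, from 276, 296 and 315 to 79.7, 104 and 91.3 (log2 fold change -1.69, SE 0.14, adjusted p = 2.37e-04). Rsad2, the antiviral enzyme viperin, and Gbp3, a guanylate-binding GTPase, fell too (-1.24 and -1.41). The letters of the interferon-stimulated response element, GAAA, any 2 bases and GAAA on either strand, were found in the RefSeq promoter windows (250 bases before to 50 after a start, GRCm38.p6) of 7 of the 10 fallers that had a window, of 21 of 41 other tested members (51.2%) and of 1079 of 27025 genes in all (3.99%). Apol9a, Apol9b and Gbp2 are among the 7, and the windows of Apol9a and Apol9b hold the same matched stretch. The call of Apol9a was lost without control 1, control 2, control 3, HSC-KO 1 or HSC-KO 2 (largest adjusted p = 0.12). That of Gbp2 was lost without control 3, HSC-KO 1 or HSC-KO 2 (largest adjusted p = 0.0587), and that of Apol9b without HSC-KO 1 (0.0527). The 250 bases before the start are given for 3 of the fallers that hold a match, with the matched letters in capitals. Matches on the opposite strand read as the reverse complement, and overlapping matches run together.
Oas3, chr5:120777660-120777909, minus strand: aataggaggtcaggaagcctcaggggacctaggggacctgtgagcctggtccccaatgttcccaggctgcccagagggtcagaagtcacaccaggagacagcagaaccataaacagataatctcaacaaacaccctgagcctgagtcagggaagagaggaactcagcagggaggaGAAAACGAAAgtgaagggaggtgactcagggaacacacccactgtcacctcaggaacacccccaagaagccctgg
Rsad2, chr12:26456453-26456702, minus strand: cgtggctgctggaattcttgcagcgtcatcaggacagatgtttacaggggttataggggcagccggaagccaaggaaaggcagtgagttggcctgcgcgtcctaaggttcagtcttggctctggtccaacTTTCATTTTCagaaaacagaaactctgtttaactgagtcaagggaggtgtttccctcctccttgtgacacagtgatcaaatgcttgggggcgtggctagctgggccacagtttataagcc
Gbp3, chr3:142559794-142560043, plus strand: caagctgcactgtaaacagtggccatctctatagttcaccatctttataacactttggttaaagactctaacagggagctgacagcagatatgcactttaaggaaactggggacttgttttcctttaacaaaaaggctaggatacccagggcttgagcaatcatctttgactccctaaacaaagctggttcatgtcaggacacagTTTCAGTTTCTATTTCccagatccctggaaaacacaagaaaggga

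Of 24 MHC class II and costimulation genes, 10 rose (41.7%, against 6.32% of all genes), and all 10 kept their call whichever library was left out. By edgeR's test 0 were lower, with 2 below 0 at an unadjusted p under 0.05, and DESeq2 called 0 lower; without control 1 or HSC-KO 3 there was 1. H2-Eb1, a class II beta chain, was at 1099.7, 1204 and 1607 CPM in controls and 5781, 7780.3 and 6898 in HSC-KO (log2 fold change 2.39, SE 0.21, adjusted p = 3.30e-04). Cd74, the invariant chain, went from 5190.5, 5689 and 7492 to 19138, 19768 and 20217 CPM (log2 fold change 1.69, SE 0.19, adjusted p = 9.68e-04). Ciita, the coactivator that switches class II genes on, rose in the same libraries, from 26.6, 30.4 and 30.9 to 129.7, 74.4 and 126 (log2 fold change 1.91, SE 0.22, adjusted p = 0.00107). No control library reached the lowest mutant library. Lag3, a receptor that binds class II and is also made by T cells, went from 0.709, 0.553 and 0.664 to 16.5, 17.6 and 23.7 (log2 fold change 4.9, SE 0.24, adjusted p = 4.32e-05), and Icosl, a costimulatory ligand, from 11.3, 6.76 and 9.58 to 71.9, 62.1 and 50.3 (log2 fold change 2.74, SE 0.23, adjusted p = 2.81e-04). Dendritic cells also carry class II, and the summed level of their 10 markers overlapped between groups, at 60.64 to 73.13 CPM in controls and 40.33 to 79.80 in HSC-KO, with Xcr1 alone higher and no marker higher without control 2 or control 3. Markers of liver capsular and peritoneal macrophages, which the gate could hold, summed to 2317 to 3165 CPM in controls and 9099 to 10420.0 in HSC-KO. Of 9 tested, H2-Aa, itself a class II gene, and Cx3cr1 were higher and Cd207 and Icam2 lower, and Gata6, the factor that defines peritoneal macrophages, was at a mean of 0.182 CPM in controls and 0.177 in HSC-KO. The part of these cells in the class II rise was not tested. Of 25 class I and peptide loading genes, 1 was higher, or 0 without control 2 or HSC-KO 3, and 1 lower (4% each, below the 6.32% and 5.34% of all genes). H2-K1 was at 3313, 3162 and 3639.7 CPM and 3501, 4058 and 3744 (log2 fold change 0.16, SE 0.14, adjusted p = 0.472), while Cd1d1, which presents lipids to NKT cells, fell from 138, 139 and 129 to 43.3, 40.1 and 43.4 (log2 fold change -1.68, SE 0.1, adjusted p = 8.56e-05).

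Over 4 lists of lysosomal and uptake genes, 23 of 170 rose and 26 fell (13.5% and 15.3%, against 6.32% and 5.34% of all genes), and 12 of these rises and 17 of these falls were scavenger and phagocytic receptors. Of 72 hydrolases and membrane proteins, 6 rose and 6 fell (8.33% each, near the shares of all genes), with a median log2 fold change of 0.01; besides Cd63, Arsg, a sulfatase, rose from 1.25, 0.777 and 1.43 to 12.4, 9.04 and 11.4 CPM (log2 fold change 3.25, SE 0.29, adjusted p = 3.75e-04). Slc15a3, a transporter of histidine and peptides out of lysosomes, fell from 579.7, 649.6 and 542 to 186, 188 and 156 (log2 fold change -1.74, SE 0.14, adjusted p = 2.29e-04), and Lipa, lysosomal acid lipase, from 652, 604 and 606 to 317, 257 and 208 (log2 fold change -1.25, SE 0.17, adjusted p = 0.00214). Lamp1, a main membrane protein, overlapped (1450.2, 1479.8 and 1091 against 1145, 1138 and 971 CPM; adjusted p = 0.234). Of 21 lysosomal proteases and inhibitors, 4 rose and 2 fell (19% and 9.52%), with 2 and 1 kept whichever library was left out. The kept rises were Ctse and Ctsw. Among cathepsins, Ctsb, the most abundant, was at 17416, 18263 and 20456 CPM and 10867, 6836 and 8503 (log2 fold change -1.1, SE 0.21, adjusted p = 0.00965), with a call lost without HSC-KO 2 (largest adjusted p = 0.0375, log2 fold changes -1.28 to -0.95), and Ctsl fell (-1.19). Ctss, which trims the invariant chain, did not pass (0.33, adjusted p = 0.31), and its inhibitor Cst3 rose from 1704, 1787 and 1679.7 to 3150.2, 4606 and 2923 CPM (log2 fold change 1.05, SE 0.2, adjusted p = 0.00922). The call of Cst3 was lost without HSC-KO 2 (largest adjusted p = 0.0395, log2 fold changes 0.82 to 1.17). Of 21 subunits of the vacuolar ATPase, 1 rose (Atp6v0d2, 2.3; 2 rose without HSC-KO 2) and 1 fell (Atp6v0e2, -2.8), both from low levels (4.76% each, below the shares of all genes). Atp6v1a, a catalytic subunit, was lower without passing the fold threshold (log2 fold change -0.67, SE 0.16, adjusted p = 0.0223).

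Uptake receptors moved in both directions. Of 58 scavenger and phagocytic receptors, 17 fell and 12 rose (29.3% and 20.7%, against 5.34% and 6.32% of all genes). The fallers include the KC receptors Clec4f and Cd5l. Marco, a scavenger receptor for bacteria, was at 406, 239.8 and 489 CPM and 1.93, 0.828 and 8.15 (log2 fold change -6.7, SE 0.89, adjusted p = 0.00206), and Msr1, another, at 289, 241 and 235 and 104, 96.6 and 92.1 (log2 fold change -1.39, SE 0.13, adjusted p = 3.75e-04). Risers were Fcrls, an Fc receptor-like scavenger protein, from 0.792, 0.2 and 0.28 to 381, 503 and 229 CPM (log2 fold change 9.74, SE 0.61, adjusted p = 9.03e-05), Stab1, a receptor for oxidised lipoproteins, from 68.4, 72 and 44.2 to 1167, 867 and 706 (log2 fold change 3.89, SE 0.27, adjusted p = 1.42e-04), and Clec5a, a lectin receptor of myeloid cells, from 2.02, 1.34 and 2.67 to 29.1, 42.6 and 33.9 (log2 fold change 4.14, SE 0.3, adjusted p = 1.54e-04). Stab2, the relative of Stab1 that sinusoidal endothelium also makes, went from 209, 278 and 205 to 32.6, 18.9 and 35.5 (log2 fold change -2.99, SE 0.26, adjusted p = 3.38e-04). Mrc1, the mannose receptor, overlapped (0.37, adjusted p = 0.291).

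Of 31 complement genes, 8 fell and 3 rose (25.8% and 9.68%, against 5.34% and 6.32% of all genes; median -0.7). Cfp, properdin, which stabilises the alternative pathway convertase, was at 3488, 3495 and 4092 CPM in controls and 398, 317 and 644 in HSC-KO (log2 fold change -3.03, SE 0.28, adjusted p = 3.97e-04). C6, of the membrane attack complex, fell from 1042, 976 and 813 to 70.2, 72.2 and 140.3 CPM (log2 fold change -3.32, SE 0.3, adjusted p = 3.78e-04). Cfb and C2, convertase components that share exons with a read-through entry, fell (-2.41 and -2.45). C1qa, which starts the classical pathway, overlapped between groups (3511, 3558 and 3635 against 3231, 3943 and 3326 CPM; -0.03, SE 0.14), and the 3 risers were the receptor chains Itgax and Itgam and the C5a receptor C5ar1. The call of C5ar1 was lost without control 2 or control 3 (largest adjusted p = 0.0683, log2 fold changes 1.02 to 1.66). Of 41 pattern recognition and inflammasome genes, 6 rose and 3 fell (14.6% and 7.32%), but 3 rose without control 2 or HSC-KO 2, and 3 rises kept their call whichever library was left out. Naip1, a sensor of bacterial secretion needles, was at 22, 19.5 and 12.3 CPM and 0.182, 0.199 and 0.0986 (log2 fold change -6.79, SE 0.38, adjusted p = 6.54e-05), whereas its adaptor Nlrc4 rose from 16.4, 17.1 and 12.4 to 33.4, 38.4 and 29.7 (log2 fold change 1.14, SE 0.17, adjusted p = 0.00387). Lbp, the carrier of lipopolysaccharide, fell from 44.8, 41.2 and 36.2 to 1.21, 1.02 and 1.99 (log2 fold change -4.86, SE 0.29, adjusted p = 7.19e-05), and its receptor gene Tlr4 was 0.05 (SE 0.21, adjusted p = 0.894).

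**Figure D5:**
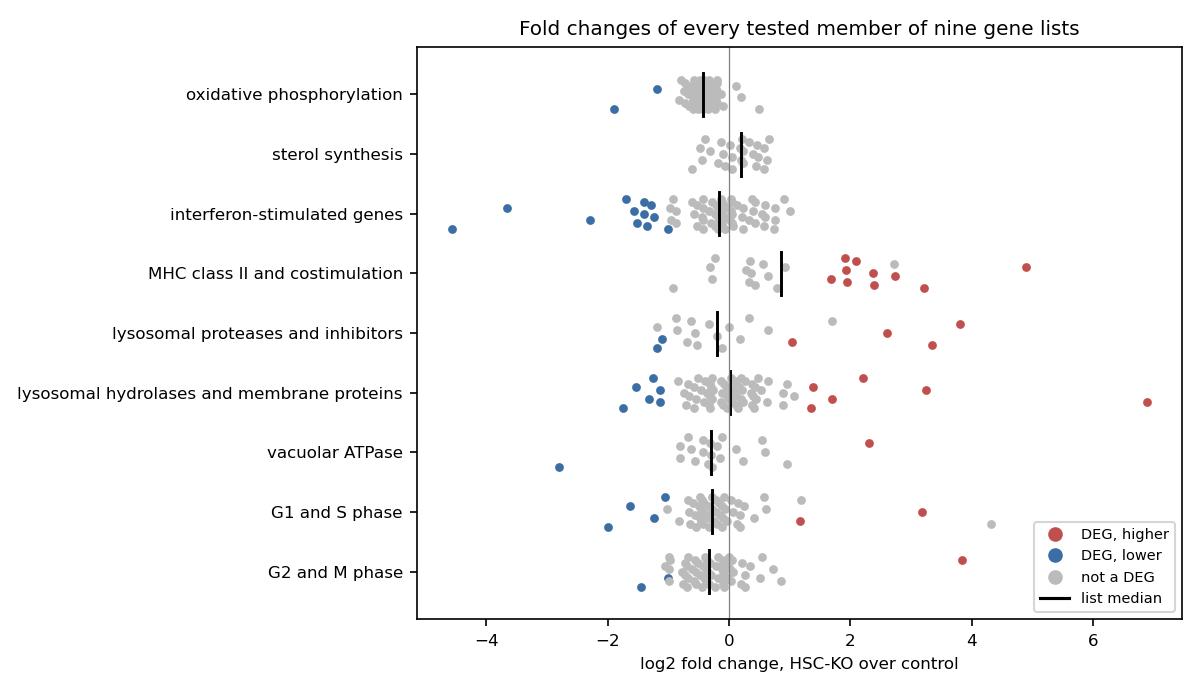
Points are the log2 fold changes of every tested member of 9 lists, HSC-KO over control, red and blue for DEGs and grey for the rest, with a black line at each list's median. The respiratory chain lies in a narrow band below 0 (median -0.42) and MHC class II spreads to the right (median 0.87). The lysosome and cell cycle lists have single members far from their medians, which run from -0.32 to 0.01.

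Of 134 cell cycle genes, 3 were higher and 7 lower (2.24% and 5.22%, against 6.32% and 5.34% of all genes). The number lower depended on HSC-KO 3, since G2 and M phase had 2 lower genes with all libraries and 7 without it. It was 5 with the sex of the mice, read from the counts, as a covariate. Mki67, a marker of cycling cells, was at 26.3, 17.6 and 13.8 CPM in controls and 12.7, 14.7 and 18.1 in HSC-KO (log2 fold change -0.34, SE 0.26, adjusted p = 0.4). Top2a, which untangles chromosomes, was at 38.5, 32.4 and 29.3 and 21.1, 25.4 and 34.1 (log2 fold change -0.31, SE 0.2, adjusted p = 0.326), and Mcm2, of the replicative helicase, at 31, 16.8 and 19.6 and 22.4, 18.9 and 21.2 (log2 fold change -0.11, SE 0.23, adjusted p = 0.792). The groups overlapped for all 3. Of 53 genes of G1 and S phase, 39 were below 0 and of 62 genes of G2 and M phase, 47, with medians of -0.28 and -0.32. Ccnd2, cyclin D2, stood apart at 25.7, 38.6 and 32.7 CPM in controls and 206, 372 and 301 in HSC-KO (log2 fold change 3.18, SE 0.26, adjusted p = 2.40e-04), while Ccnd1 overlapped (-0.25, adjusted p = 0.397). Espl1, separase, rose from 1.79, 1.22 and 0.752 to 17.2, 18.3 and 18.8 CPM (log2 fold change 3.84, SE 0.32, adjusted p = 2.75e-04). Tk1, thymidine kinase, fell from 66.5, 42.8 and 65.8 to 10.4, 16.1 and 17.7 (log2 fold change -1.99, SE 0.25, adjusted p = 0.00175), and Gmnn, geminin, which blocks re-licensing of origins, from 36.9, 38 and 45.5 to 9.75, 13.8 and 15.5 (log2 fold change -1.62, SE 0.2, adjusted p = 0.00148). The inhibitor gene Cdkn1a was higher in every mutant library, below the fold threshold (log2 fold change 0.74, SE 0.21, adjusted p = 0.0483), and Gadd45g, a stress-induced brake, fell (log2 fold change -2.14, SE 0.19, adjusted p = 3.75e-04).

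Of 51 transcription factors of macrophage lineages, 10 rose, all of which kept their call whichever library was left out, and 6 fell (19.6% and 11.8%, against 6.32% and 5.34% of all genes). Bhlhe41, a repressor known from alveolar macrophages, was at 1.68, 1.45 and 0.856 CPM in controls and 144, 151 and 89.2 in HSC-KO (log2 fold change 6.57, SE 0.34, adjusted p = 4.93e-05). Runx3 went from 5.66, 3.49 and 2.18 to 350.1, 217 and 201 CPM (log2 fold change 6.07, SE 0.43, adjusted p = 1.42e-04), and Mef2c, a MADS-box factor, from 2.2, 5.09 and 4.74 to 167, 215 and 139.6 (log2 fold change 5.44, SE 0.37, adjusted p = 1.23e-04). Runx1 and Runx2 rose too (1.78 and 4.29), so that the 3 members of the Runx family moved in one direction. Runx2 is also a marker of plasmacytoid dendritic cells, and the summed level of 8 such markers was 278.4 to 361.9 CPM in controls and 383.2 to 584.4 in HSC-KO, with Runx2 and Siglech the 2 higher of 7 tested; their part in the result was not tested. Spi1, encoding PU.1, was lower by less than the threshold (log2 fold change -0.59, SE 0.12, adjusted p = 0.0125). Rxra, the partner of LXR and PPAR receptors, fell from 278, 277 and 241 to 111, 72.3 and 109 (log2 fold change -1.44, SE 0.18, adjusted p = 0.00169), and Hey1, a target of BMP and Notch signals, from 6.44, 4.9 and 9.42 to 0.182, 0.136 and 0.131 (log2 fold change -5.51, SE 0.38, adjusted p = 1.41e-04).

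Outside the lists, the largest rises with no overlap included Slco2b1, an organic anion transporter, at 1.13, 0.848 and 0.507 CPM in controls and 369.9, 368 and 254 in HSC-KO (log2 fold change 8.61, SE 0.35, adjusted p = 2.63e-05), and Slc13a3, a dicarboxylate transporter, at 0.437, 0.236 and 0.262 and 86.2, 89.5 and 79.5 (log2 fold change 8.07, SE 0.26, adjusted p = 9.25e-06). Gpr34, a lysophosphatidylserine receptor, went from 0.757, 0.106 and 0.961 to 153, 174 and 105 (log2 fold change 7.93, SE 0.66, adjusted p = 2.69e-04). The largest falls included St3gal5, which makes the ganglioside GM3, at 608, 572 and 514 CPM against 2.43, 1.85 and 4.46 (log2 fold change -7.6, SE 0.38, adjusted p = 4.84e-05), Dmpk, a kinase, at 305, 260.2 and 293 against 0.684, 0.147 and 2.21 (log2 fold change -8.14, SE 0.85, adjusted p = 7.15e-04), and Ptgis, prostacyclin synthase, at 70.6, 101 and 94.4 against 0.444, 0.189 and 1.5 (log2 fold change -6.96, SE 0.7, adjusted p = 5.93e-04). Some of the largest changes were all-or-none entries. Adnp had no count in controls and 5737 to 7190 counts in HSC-KO, and Gm20716, which shares its exons on the same strand, had 2535 to 6022 counts in controls and none in HSC-KO; their sum was 44.31 to 71.19 CPM in controls and 62.85 to 75.39 in HSC-KO. Kctd12 had no count in controls and 16089 to 24372 in HSC-KO, but among the 6 libraries of the Smad4 experiment 5 held 11363 to 13093 counts and 1 Smad4 cKO library none. How far such entries reflect the assignment of reads was not tested. Mup12, Mup15 and Cyp26b1 were highest in control 2 (10508, 3104 and 2435 counts); the call of Mup12 was lost without control 2, HSC-KO 1, HSC-KO 2 or HSC-KO 3 (largest adjusted p = 0.102, log2 fold changes -10.57 to -4.83), that of Mup15 without control 2 (largest adjusted p = 0.0687, log2 fold changes -13.4 to -5.57) and that of Cyp26b1 without HSC-KO 1, HSC-KO 2 or HSC-KO 3 (largest adjusted p = 0.065, log2 fold changes -8.32 to -4.7).

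Macrophages of Smad4 cKO mice, in which a Vav1-driven Cre deletes Smad4 in blood-forming cells and their progeny, compared with their own controls in 6 further libraries that share no control with these, gave the nearest comparison. Over 18149 genes, 258 (1.42%) had a higher and 215 (1.18%) a lower log2 fold change in HSC-KO than in Smad4 cKO by an interaction in edgeR's quasi-likelihood test with the same thresholds. MHC class II was among the differences, with 7 of 24 members higher, for example H2-Aa (1.93 in HSC-KO and 0.13 in Smad4 cKO; difference 1.85, SE 0.36, adjusted p = 0.0205). Chemoattractant receptors had 5 of 32 higher and none lower, among them Ccr2 (3.29 and -0.5; adjusted p = 0.00674) and Gpr183 (5.1 and 0.24; adjusted p = 0.00154). In G2 and M phase 17 of 62 members were lower, for example Top2a (-0.31 and 1.44; adjusted p = 0.0271) and Kif23 (-1.45 and 1.02; adjusted p = 0.013). This last count rested on single libraries: it was 2 without HSC-KO 1, without HSC-KO 2 or without Smad4 cKO 1, 3 without Smad4 control 2 or 3, 6 to 7 without control 1, 2 or 3 or Smad4 cKO 2, 13 without Smad4 control 1, and 23 to 25 without Smad4 cKO 3 or HSC-KO 3. The class II count was 3 without control 2, Smad4 control 2, Smad4 control 3 or Smad4 cKO 1 and 5 to 8 without each of the others. The receptor count was 5 or 6 with any of the 12 libraries left out. Testing against a log2 difference of 1 with glmTreat left 0 class II, 0 G2 and M phase and 3 receptor genes, and DESeq2 called 8, 38 and 8.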

How the data were processed

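RNA of sorted liver macrophages was sequenced by the authors; the labels and the methods name different library kits. The deposited counts are whole numbers of reads per gene symbol, which the authors made by aligning to mm10 (GRCm38) with HISAT2 and counting with featureCounts. Versions, annotation release, strand setting and the handling of multi-mapping reads are not given in the sources used here, so genes with near-identical copies or shared exons are uncertain. Libraries held 60911527 to 93926928 counts over 48820 entries.

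Genes were kept by filterByExpr (16337), scaled by TMM and tested with edgeR 4.0.16 (R 4.3.3; glmQLFit and glmQLFTest, 3 against 3). A DEG had an adjusted p (Benjamini-Hochberg) under 0.05 and a log2 fold change beyond 1 in size. SE is the absolute log2 fold change divided by the square root of F. CPM values use the TMM-scaled library sizes. The comparison with Smad4 was an interaction over 12 libraries. Replicates are separate mice. DESeq2 1.42.0, DESeq2's size factors, library size alone, looser and stricter count filters, glmTreat, sex as a covariate, a replicate block, leaving out each library, and leaving out genes over 20 times higher in sorted control endothelial cells served as alternatives. Dropping genes that share exons with another on their strand (GENCODE vM21) was added after seeing the data. The code was tested on simulated data. The whole-liver libraries were not used here, and some genes are not reported here.

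The members and lists were chosen with earlier results of these data known. Named genes are up to 3 DEGs per list and direction with the largest change, a group mean of at least 5 CPM and no overlap between groups, the anchor genes of each list, and up to 10 per direction among genes in no list with at least 10 CPM. Markers of other cell types are named as such. Smad6, Ppara, Pltp, Taldo1, Mmp14, Mmp2, Timp2, Ccl7, Ccl5, Ccr2, Ccr3, Cxcr6, Xcr1, Cxcr3, S1pr1, S1pr2, Il6, Il10, Il16, Il7r, Tgfbr1, Tgfbr2, Lifr, Rsad2, Gbp3, H2-Eb1, Cd74, Stab1, Stab2, Msr1, Cfb, C2, Atp6v0e2, Runx1, Runx2, Slc7a5, Idh3a, Pcx, Apol9a, Apol9b, Gbp2 and Ctse lie outside this rule and were chosen after their values were seen. Promoter windows are from RefSeq (GRCm38.p6).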

Additional observations from a re-analysis of the deposited data

Results flagged for a closer look

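For 70 of the genes named here, the log2 fold change in macrophages of HSC-KO mice differed from that in macrophages of Smad4 cKO mice by the interaction in edgeR's quasi-likelihood test (adjusted p below 0.05 and a difference above 1). Over all genes 1.42% were called higher and 1.18% lower. Most of the named genes were picked for large changes in the same HSC-KO libraries, so the 70 are not read against these shares. Each value below is HSC-KO minus Smad4 cKO on the log2 scale. Transcription factors and BMP targets were among them. Id3 had a log2 fold change of -8.23 in HSC-KO and -2.44 in Smad4 cKO (difference -5.74, adjusted p = 0.000465). Runx3 had a log2 fold change of 6.07 in HSC-KO and 1.41 in Smad4 cKO (difference 4.71, adjusted p = 0.000827). The others were Id1 (-4.58), Smad6 (-3.42), Mef2c (2.92), Ciita (1.82) and Rb1 (1.16).

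Among chemokines, receptors and other signals, the difference was above 0 for Ccl12 (4.19), Ccl8 (4.88), Ccr1 (4.04), Ccr2 (3.84), Xcr1 (3.89), Gpr183 (4.92), Tnfsf13b (3.67), Sema4d (4.25), Gas6 (1.75), Ang (2.51) and Gpr34 (3.51) and below 0 for Ccl24 (-1.32) and Tnfrsf26 (-1.97). Ccl8 had a log2 fold change of 3.18 in HSC-KO and -1.65 in Smad4 cKO (difference 4.88, adjusted p = 0.000509). Antigen presentation genes were H2-Aa (1.85), H2-Eb1 (2.06), Cd74 (1.68) and Icosl (1.46), all 4 above 0. Among adhesion and matrix genes, it was above 0 for Adam19 (3.91), Mmp2 (2.57), Alcam (2.67), Itga6 (2.9) and Cd93 (3.89) and below 0 for Cdh5 (-4.63), Nectin2 (-1.51) and Tgm2 (-2.28).

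For uptake receptors and lysosomal genes, Fcrls (5.76), Clec5a (4.0), Cd63 (3.59) and Cst3 (1.3) were above 0 and Marco (-5.17), Msr1 (-1.28), Stab2 (-2.62), Timd4 (-1.66), Vsig4 (-4.06), Smpdl3a (-1.9) and Hgsnat (-1.12) below 0. Marco had a log2 fold change of -6.70 in HSC-KO and -1.48 in Smad4 cKO (difference -5.17, adjusted p = 0.0127). Metabolic genes were Acsl3 (2.23), Agpat2 (1.63) and Slc1a5 (1.4) above 0 and Idh1 (-1.44) below 0. In innate sensing, the values were Mefv (2.98) and Lbp (-3.83), and in the cell cycle Top2a (-1.71), Tk1 (-1.99) and Kif23 (-2.42). Top2a had a log2 fold change of -0.31 in HSC-KO and 1.44 in Smad4 cKO (difference -1.71, adjusted p = 0.0271), and its level did not pass the test in HSC-KO.

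Markers of other cell types were Ighm (3.92), Cd4 (2.81) and Spn (5.39) above 0 and Pecam1 (-2.41), Icam2 (-1.31), Treml4 (-2.14) and Cd300e (-3.87) below 0. Genes in no list were Tmem119 (2.82), Olfml3 (3.79), Rapsn (8.03), P3h2 (7.4), Slc13a3 (3.52) and Gal3st4 (14.23) above 0 and Pram1 (-8.07), Ptgis (-4.74), St3gal5 (-5.14) and Dmpk (-4.48) below 0. For Gal3st4 the Smad4 comparison alone had too few counts to be fitted, so its difference gives a direction and no size. Kctd12 (17.86) was also above 0, and this entry had no count in any control library of the HSC-KO experiment and in 1 of the 6 Smad4 libraries, and 11363 or more counts in the others.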

How the results depend on the processing

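The 1904 DEGs were 1032 higher and 872 lower. Testing against a log2 fold change of 1 with glmTreat asks for more than the 2-step threshold and left 906 DEGs, 473 higher and 433 lower, and 34 for metabolism, 39 for cytokines, 13 for interferon and antigen presentation, 31 for lysosome, 11 for complement and pattern recognition and 5 for cell cycle. The other alternatives moved these counts by less than 1.5 times, except that the cell cycle went from 10 to 15 without HSC-KO 3: DESeq2 gave 2481 DEGs and library size alone 1124 higher and 770 lower, with the median log2 fold change of all genes moving from 0.04 to 0.13. Leaving out 1 library at a time gave 1399 to 1985 DEGs in all, 702 to 1070 higher and 686 to 915 lower, with 59 to 67 for metabolism, 54 to 73 for cytokines, 45 to 50 for lysosome and 9 to 15 for cell cycle. Of 291 list members that were DEGs, 236 kept their call with every library left out and 178 in every alternative that tested them. Among 3304 fits of single named genes, 3181 kept their direction and side of the threshold, 115 fell below it, 8 passed it and none changed direction. The difference from the Smad4 experiment, 473 genes, was less stable: 1108 with DESeq2, 105 with glmTreat and 233 to 556 with a library left out, the lowest without Smad4 control 3 (233), Smad4 control 2 (267), Smad4 cKO 1 (276), HSC-KO 1 (301) and HSC-KO 2 (312). The causes were not tested.

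The labels do not say whether the replicate numbers pair the mice. Deviations from the group means of same-numbered libraries correlated across genes at 0.16, -0.11 and 0.06, which with 3 libraries per group cannot exclude a pairing. With the replicate number as a block, 1599 genes were DEGs (827 higher and 772 lower), 17 of the 291 list members lost their call (19 with the sex of the mice as a covariate), and 299 genes differed from the Smad4 experiment. The rises went from 7 to 4 among cytokines and from 6 to 3 in pattern recognition, and the falls in G2 and M phase from 2 to 5. For genes with no count in a group, depth limits the fold to a lower bound.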

Other observations

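Several of the genes with the largest rises are known from microglia, the resident macrophages of the brain. A list of 16 genes of that kind was written after their values were seen, so it carries no test. Of 15 tested, 11 were DEGs, all higher in HSC-KO, and none was lower; over all genes 6.32% were higher, and nothing is read from this share, since the genes were chosen for their rises. Tmem119, a membrane protein of microglia, was at 4.55, 2.64 and 2.66 CPM in controls and 95.8, 98.3 and 90.6 in HSC-KO (log2 fold change 4.85, SE 0.25, adjusted p = 4.84e-05). Olfml3, a secreted matrix protein, was at 12.4, 13.1 and 26.6 CPM and 267, 404 and 314 (log2 fold change 4.24, SE 0.35, adjusted p = 2.69e-04), and Siglech, a sialic acid-binding lectin, at 0.0709, 0.341 and 0.332 and 6.2, 5.05 and 4.58 (log2 fold change 4.42, SE 0.57, adjusted p = 0.00183). Siglech is also a marker of plasmacytoid dendritic cells, whose markers were higher in sum in HSC-KO; their part in this rise was not tested. Fcrls, Gpr34, Cx3cr1, Bhlhe41, Mef2c, Trem2 and Tgfbr1 were also among them. In Smad4 cKO against its own controls, the log2 fold changes were 2.08 for Tmem119, 0.5 for Olfml3, 2.98 for Siglech, 4.02 for Fcrls, 4.47 for Gpr34, 6.14 for Cx3cr1, 4.74 for Bhlhe41, 2.56 for Mef2c, 0.02 for Trem2 and 1.72 for Tgfbr1, of which Olfml3 and Trem2 did not pass the same threshold. P2ry12, the ADP receptor that is often used to define microglia, was expressed in both groups and did not pass (106, 109 and 98.6 CPM against 78.2, 105 and 73.2; log2 fold change -0.29, SE 0.15, adjusted p = 0.235). P2ry13, Sparc and Slc2a5 did not pass either, and Sall1, a transcription factor of microglia, had too few counts to be tested.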
